A study of Mus musculus with 12 samples.

Results

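Border-associated macrophages are represented here by 8 genes, Mrc1, Stab1, Lyve1, Cd163, Pf4, F13a1, Ms4a7 and Cbr2, chosen by name as markers of the perivascular and meningeal macrophages of the brain. All 8 were present among the 15089 genes of the table, and all were tested. RNA of cortical cells sorted on postnatal day 16 by magnetic separation for ACSA-2, which astrocytes carry on their surface, had been sequenced in 12 libraries. Each genotype had 4 libraries, named here by their replicate numbers. The ctrl-2 mice (replicates 4, 5, 6 and 7) carried 1 floxed Nmnat2 allele (Nmnat2 f/+), cKO;S/+ mice (replicates 8, 9, 10 and 14) were Nmnat2 f/f, and both were Sarm1+/- by their labels, although the methods of the study give the controls 0 or 1 null allele. The cKO;S/S mice (replicates 15, 16, 17 and 18) were Nmnat2 f/f and Sarm1-/-. Every group carried NexCre+/-, so no group was free of Cre. Nex-Cre acts in postmitotic glutamatergic neurons, so the loss of Nmnat2, an NAD-synthesizing enzyme, was neuronal and did not touch astrocytes or macrophages. Sarm1, an NAD hydrolase, was null in all cells of cKO;S/S mice. Animals of both sexes were used and the labels name no drug treatment.

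Border-associated macrophages live in the perivascular spaces, the meninges and the choroid plexus, outside the brain tissue in which microglia reside. Like microglia they descend largely from yolk sac precursors and depend on the receptor CSF1R, and they are known for taking up material from the fluid around vessels through scavenger and mannose receptors. Both cell types use the transcription factor PU.1. Markers such as Mrc1 and Cd163 mark border-associated macrophages, while Tmem119, P2ry12 and Sall1 mark microglia.

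Of the marker lists, that of astrocytes had the highest summed level. The 8 astrocyte markers summed to between 16700 and 29700 CPM (counts scaled to library size) per library, the 12 homeostatic microglia markers to between 3250 and 7530 CPM and the 8 border macrophage genes to between 200 and 352 CPM. In all 3 genotypes these 8 genes were thus a small part of the library by CPM. Of the astrocyte sum, Slc1a2 alone had a mean of 15800 CPM in ctrl-2, where the mean sum was 28400 CPM. Sums over lists of unlike genes do not measure the share of each cell type. Library totals ran from 16506627 to 22159404 counts. In such bulk samples, fewer cells of a type and less RNA per cell cannot be told apart.

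The promoters of the members were compared because most of the genes moved together across libraries. RefSeq sequences of GRCm38.p6 matched 7 of the 8 genes by symbol, in 9 windows of the 250 bases before an annotated start. Lyve1 had no entry. The windows were searched on both strands for the PU.1 core GAGGAA, for TGCTGAC, a part of the MAF recognition site, and for the AP-1 motif TGANTCA, none of which overlaps another in these windows. Cbr2 was the only member that passed the test, and the levels of Cd163 and F13a1 followed each other most closely. Stab1 differed between cKO;S/+ and ctrl-2 with a sign opposite to the rest. The windows of Cbr2, Cd163, F13a1 and Stab1 are shown 5′ to 3′ on the strand of the gene, with GAGGAA or its complement TTCCTC in capitals.
Cbr2: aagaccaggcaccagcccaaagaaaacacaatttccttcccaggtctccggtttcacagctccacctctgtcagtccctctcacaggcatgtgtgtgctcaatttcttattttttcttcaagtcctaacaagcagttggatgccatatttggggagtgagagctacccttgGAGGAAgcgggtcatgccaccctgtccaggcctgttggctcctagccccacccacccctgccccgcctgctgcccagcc
Cd163: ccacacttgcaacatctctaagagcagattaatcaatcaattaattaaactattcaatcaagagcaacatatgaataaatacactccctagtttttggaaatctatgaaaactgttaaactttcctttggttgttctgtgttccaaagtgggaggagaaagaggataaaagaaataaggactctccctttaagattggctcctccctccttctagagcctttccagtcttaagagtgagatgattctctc
F13a1: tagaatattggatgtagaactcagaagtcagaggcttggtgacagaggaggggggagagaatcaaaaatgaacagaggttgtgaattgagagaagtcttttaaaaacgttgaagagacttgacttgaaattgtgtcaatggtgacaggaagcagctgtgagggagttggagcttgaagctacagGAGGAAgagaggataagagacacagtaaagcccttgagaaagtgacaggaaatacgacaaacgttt
Stab1: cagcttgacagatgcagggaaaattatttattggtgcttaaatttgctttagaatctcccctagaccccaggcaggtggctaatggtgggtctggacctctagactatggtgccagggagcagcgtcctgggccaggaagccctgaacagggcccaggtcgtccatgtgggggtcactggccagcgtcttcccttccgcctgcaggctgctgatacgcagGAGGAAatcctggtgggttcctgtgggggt
These windows are chr11:120732022-120732271 on the minus strand for Cbr2, chr6:124304401-124304650 on the plus strand for Cd163, chr13:37050245-37050494 on the minus strand for F13a1 and chr14:31168642-31168891 on the minus strand for Stab1. The PU.1 core lay 79 to 74 bases before the start of Cbr2, 66 to 61 before F13a1 and 30 to 25 before Stab1, and was not among the letters of the Cd163 window. Over the 9 windows, 5 held the core (those of Mrc1, Pf4, Cbr2, Stab1 and one of F13a1), against 23.3% of the 32851 windows of all genes. The MAF letters were in 0 of the 9 windows (3.81% of all windows) and the AP-1 letters in 1, a window of Ms4a7 (6.75% of all windows). A match of letters describes the window and no more.

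The genes differed widely in level. Per kilobase of exon, Stab1 stood highest in ctrl-2, at 16.2 ± 2.20 CPM per kb (SD, n = 4), followed by Mrc1 at 14.3 ± 5.74, Pf4 at 7.57 ± 3.64, F13a1 at 4.81 ± 2.62, Cbr2 at 3.96 ± 1.79, Cd163 at 3.14 ± 1.77, Lyve1 at 2.83 ± 1.31 and Ms4a7 at 0.848 ± 0.372 CPM per kb. Each neighbouring pair in this order overlapped between libraries except Lyve1 and Ms4a7, whose lowest and highest libraries were 1.48 and 1.19 CPM per kb. On the same scale the microglia gene Tmem119 had 62.7 ± 19.5 CPM per kb.

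Between cKO;S/+ and ctrl-2, 7 of the 8 genes had lower fitted values in cKO;S/+ and Stab1 a higher one, yet only Cbr2 passed the test over all genes. The median log2 fold change of the 8 genes was -1.08, where the median over all genes tested was -0.002. By edgeR's quasi-likelihood test 1 of 8 members was lower and 0 higher at an adjusted p under 0.05, where 1.38% of all genes were lower and 5.9% higher. At an unadjusted p under 0.05, 6 members were lower and 1 higher, where 9.25% and 14.3% of all genes were. In none of the 8 genes did all 4 cKO;S/+ libraries lie below all 4 ctrl-2 libraries, which 4.8% of all genes did.

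**Figure D1:**
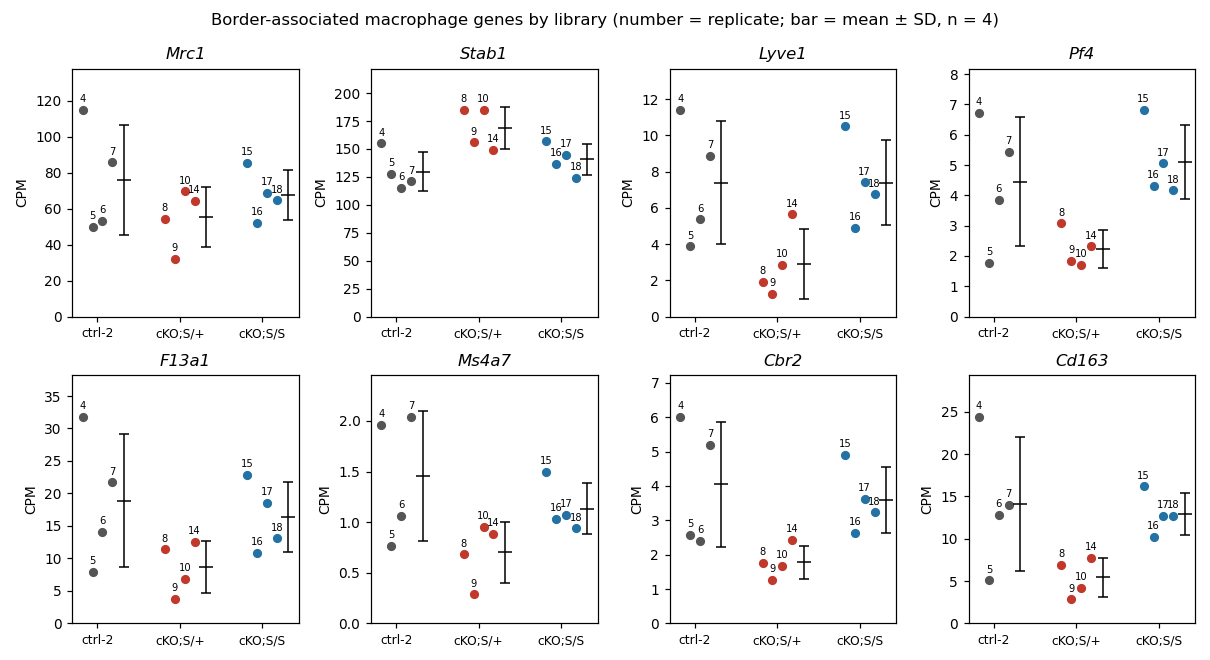
CPM (y axis, linear from 0) of the 8 border macrophage genes in each library, by genotype (x axis), with the replicate number above each point and the mean ± SD (n = 4) as a black bar. Lyve1, Pf4, F13a1, Cbr2 and Cd163 lie lower in cKO;S/+ than in most other libraries, ctrl-2 replicate 5 lies among the cKO;S/+ libraries for Pf4, F13a1 and Cd163, and Stab1 lies higher in cKO;S/+.

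Among the receptors, Cd163 takes up complexes of haptoglobin and haemoglobin. It is on chromosome 6 from 124304651 to 124330527 (GRCm38), and a lncRNA gene, Gm52877, covers 1686 of its 4492 exon bases. The strand of Gm52877 was not known here, and how the reads divide between it and Cd163 was not tested. The level of Cd163 was 24.4, 5.11, 12.8 and 14 CPM in ctrl-2 replicates 4, 5, 6 and 7, was 6.94, 2.86, 4.19 and 7.73 CPM in cKO;S/+ replicates 8, 9, 10 and 14, and was 16.2, 10.2, 12.7 and 12.7 CPM in cKO;S/S replicates 15, 16, 17 and 18. Only ctrl-2 replicate 5 fell within the range of cKO;S/+, and all cKO;S/S libraries lay above all cKO;S/+ libraries. The log2 fold change of cKO;S/+ against ctrl-2 was -1.37 (SE 0.398, adjusted p = 0.0551), the most negative of the 8, and did not pass.

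Lyve1 encodes a hyaluronan receptor found on lymphatic endothelium as well as on border macrophages (chromosome 7, 110850607 to 110862953). It had 11.4, 3.87, 5.37 and 8.88 CPM in the ctrl-2 libraries, 1.90, 1.26, 2.86 and 5.63 CPM in those of cKO;S/+ and 10.5, 4.88, 7.40 and 6.75 CPM in those of cKO;S/S, in the order of replicates above. Here cKO;S/+ replicate 14 was the library that reached into the other groups, above the lowest 2 ctrl-2 libraries. The log2 fold change against ctrl-2 was -1.34 (SE 0.433, adjusted p = 0.0787). The lymphatic markers Prox1 and Flt4 were present, and 0 of the 3 measured genes of that list were called, so which cells carried the Lyve1 reads was not tested. The third gene of that list, Reln, which neurons also express, was its most abundant, at 210 ± 61.6 CPM in ctrl-2, 132 ± 87.6 CPM in the cKO;S/+ group and 289 ± 101 CPM in the cKO;S/S group (SD, n = 4). Its log2 fold change in cKO;S/+ was -0.67 against ctrl-2 (adjusted p = 0.318) and -1.12 against cKO;S/S (adjusted p = 0.171). Across the 12 libraries Lyve1 followed the mean of the lymphatic list at a Pearson r of 0.80, and of 0.70 after the genotype means were removed, given as a description.

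Mrc1, the macrophage mannose receptor, is on chromosome 2 from 14229414 to 14332023 and holds a microRNA gene, Mir511, in an intron. Its values were 115, 49.8, 53.1 and 85.9 CPM in the ctrl-2 libraries, 54.4, 32, 69.7 and 64.5 CPM in those of cKO;S/+ and 85.4, 52.1, 68.7 and 64.7 CPM in those of cKO;S/S. All 3 groups overlapped, with ctrl-2 replicate 4 highest and cKO;S/+ replicate 9 lowest. The log2 fold change of cKO;S/+ against ctrl-2 was -0.46 (SE 0.280, 95% interval -1.06 to 0.15, adjusted p = 0.343).

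Stab1, a scavenger receptor of macrophages and sinusoidal endothelium, is on chromosome 14 from 31139017 to 31168641, and Nt5dc2 on the other strand shares 108 bases of its exons, while the lncRNA Gm52148 covers 302. Its values were 155, 128, 115 and 121 CPM in the ctrl-2 libraries, 185, 156, 185 and 149 CPM in those of cKO;S/+ and 157, 137, 145 and 124 CPM in those of cKO;S/S. The cKO;S/+ libraries were the higher ones, and of the other 8 libraries ctrl-2 replicate 4 and cKO;S/S replicate 15 reached their range. Its fitted difference from ctrl-2 was 0.38 on the log2 scale (SE 0.108, adjusted p = 0.0509), just outside the threshold and opposite in sign to the other 7 genes.

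Of the secreted proteins, Pf4 encodes platelet factor 4, a chemokine also made by border macrophages (chromosome 5, 90772435 to 90773383). It had 6.73, 1.77, 3.86 and 5.44 CPM in the ctrl-2 libraries, 3.08, 1.83, 1.71 and 2.32 CPM in those of cKO;S/+ and 6.82, 4.31, 5.06 and 4.17 CPM in those of cKO;S/S. The 4 cKO;S/+ libraries lay below 3 ctrl-2 libraries and below all of cKO;S/S, and ctrl-2 replicate 5 lay among them. The log2 fold change against ctrl-2 was -0.99 (SE 0.348, adjusted p = 0.104). Of 7 platelet markers, Gp9, Itga2b and Gp1bb were measured and none was called (log2 fold changes of -0.06 to 0.48), and 4 others were not analysed here.

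F13a1 encodes the A subunit of coagulation factor XIII (chromosome 13, 36867178 to 37050244). It had 31.8, 7.97, 14.1 and 21.7 CPM in the ctrl-2 libraries, 11.4, 3.83, 6.90 and 12.6 CPM in those of cKO;S/+ and 22.9, 10.9, 18.6 and 13.1 CPM in those of cKO;S/S. The spread within ctrl-2 was wide (coefficient of variation 54.5%), and replicate 5 again lay within the cKO;S/+ range. Its log2 fold change was -1.12 (SE 0.422, adjusted p = 0.129). A lncRNA gene on the other strand, Gm30489, covers 3096 of its exon bases, and without a stated strand setting their reads cannot be told apart.

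Cbr2, a carbonyl reductase, is on chromosome 11 from 120729485 to 120732021 and overlaps no other gene. It had 6.01, 2.58, 2.41 and 5.19 CPM in the ctrl-2 libraries, 1.76, 1.26, 1.67 and 2.43 CPM in those of cKO;S/+ and 4.91, 2.64, 3.62 and 3.23 CPM in those of cKO;S/S. Only cKO;S/+ replicate 14, at 2.43 CPM, reached the lowest ctrl-2 library, at 2.41 CPM, and all cKO;S/S libraries were above all cKO;S/+ libraries. Cbr2 fell 2.28-fold (log2 fold change -1.19, SE 0.328, 95% interval -1.90 to -0.48, adjusted p = 0.046), the 1 call among the members. That call was lost when replicate 4, 6 or 7 of ctrl-2, 8, 9 or 10 of cKO;S/+, or 17 or 18 of cKO;S/S was left out, where the adjusted p ran from 0.0545 to 0.132.

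Ms4a7, a membrane protein of the tetraspan MS4A family (chromosome 19, 11321039 to 11336146), had the fewest reads, 5 to 42 counts per library. It had 1.96, 0.764, 1.06 and 2.04 CPM in the ctrl-2 libraries, 0.684, 0.286, 0.952 and 0.883 CPM in those of cKO;S/+ and 1.5, 1.03, 1.07 and 0.939 CPM in those of cKO;S/S. The groups overlapped, with cKO;S/+ replicate 9 lowest of all 12. The log2 fold change of cKO;S/+ against ctrl-2 was -1.04 (SE 0.384, adjusted p = 0.122).

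Other tests of the same comparison called more of the members in the same directions. DESeq2 called Lyve1, Pf4, Cbr2 and Cd163 lower and Stab1 higher, where it called 3.7% of all genes lower and 8.66% higher. The likelihood ratio test of edgeR called Lyve1, Cbr2 and Cd163 lower and Stab1 higher (2.52% and 8.08% of all genes). By limma-voom 0 members passed, where 6.8% of all genes did in either direction, and 5 were lower and 1 higher at an unadjusted p under 0.05 (9.93% and 14.1% of all genes). Leaving out ctrl-2 replicate 5, in which 6 of the 8 genes were at the lowest level of their group, gave 5 members lower (Lyve1, Pf4, F13a1, Cbr2 and Cd163), with 1.39% of all genes lower. Without cKO;S/+ replicate 14, 3 were lower (Lyve1, Cbr2 and Cd163) and Stab1 was higher, in a fit that called 6.46% of all genes lower and 10.6% higher. Without ctrl-2 replicate 4, in which 7 of the 8 were highest, 0 passed. The same count of 0 came from leaving out ctrl-2 replicate 6, ctrl-2 replicate 7, any of cKO;S/+ replicates 8, 9 and 10, or cKO;S/S replicate 17. Leaving out cKO;S/S replicate 18 gave Stab1 as higher and none lower (6.08% of all genes higher). In the fits that lacked replicate 4, 6, 7 or 8, not 1 gene of the whole table passed. None of the 8 changed sign in any of these fits.

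Against ctrl-2, the fitted differences of these genes in cKO;S/S were smaller in size than those in cKO;S/+. Log2 fold changes of the 8 genes ran from -0.35 (Ms4a7) to 0.20 (Pf4) with a median of -0.14, where that of all genes was 0.014. By the quasi-likelihood test 0 members were called in either direction, and in all genes 0% were higher and 0% lower. At an unadjusted p under 0.05 no member was higher or lower, where 6.79% and 4.87% of all genes were. DESeq2 and the likelihood ratio test also called 0 members, where they called 0.384% and 0.318% of all genes. The intervals were wide. That of Cd163 (log2 fold change -0.12) ran from -0.94 to 0.70, that of Lyve1 (0.00) from -0.88 to 0.88 and that of Stab1 (0.12) from -0.12 to 0.35, so a difference of the size seen for Stab1 in cKO;S/+ lay just beyond its upper bound. For Ms4a7 the interval ran from -1.14 to 0.44 and for Mrc1 from -0.76 to 0.44. These held the values seen in cKO;S/+, -1.04 for Ms4a7 and -0.46 for Mrc1.

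The direct comparison of the mutants, cKO;S/+ against cKO;S/S, asks whether the macrophage genes depended on Sarm1 when Nmnat2 was deleted in neurons. The fitted values were lower in cKO;S/+ for 7 of the 8 genes (median log2 fold change -0.97, all genes 0.004), and none was called. In this comparison the quasi-likelihood test called 0% of all genes in either direction. At an unadjusted p under 0.05, 5 members were lower and 1 higher, where 9.11% and 9.17% of all genes were. Log2 fold changes were -1.35 for Lyve1 (SE 0.434, adjusted p = 0.159), -1.25 for Cd163 (SE 0.399, adjusted p = 0.158), -1.19 for Pf4 (SE 0.348, adjusted p = 0.155), -1.02 for Cbr2 (SE 0.330, adjusted p = 0.159) and 0.26 for Stab1 (SE 0.108, adjusted p = 0.219). For Pf4, Cbr2 and Cd163 all 4 cKO;S/+ libraries lay below all 4 cKO;S/S libraries, 3 of 8 members where 2.82% of all genes did so. DESeq2 called Lyve1, Pf4 and Cd163 lower and 0 higher (1.52% and 2.62% of all genes), the likelihood ratio test Pf4 alone (1.15% lower and 2.01% higher), and limma-voom 0 of all genes, members included. At an unadjusted p under 0.05 limma-voom had 4 members lower and 1 higher (9.54% and 8.91% of all genes). When cKO;S/+ replicate 14 was left out, Lyve1, Cbr2 and Cd163 passed the quasi-likelihood test as lower, as did 5.38% of all genes.

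**Figure D2:**
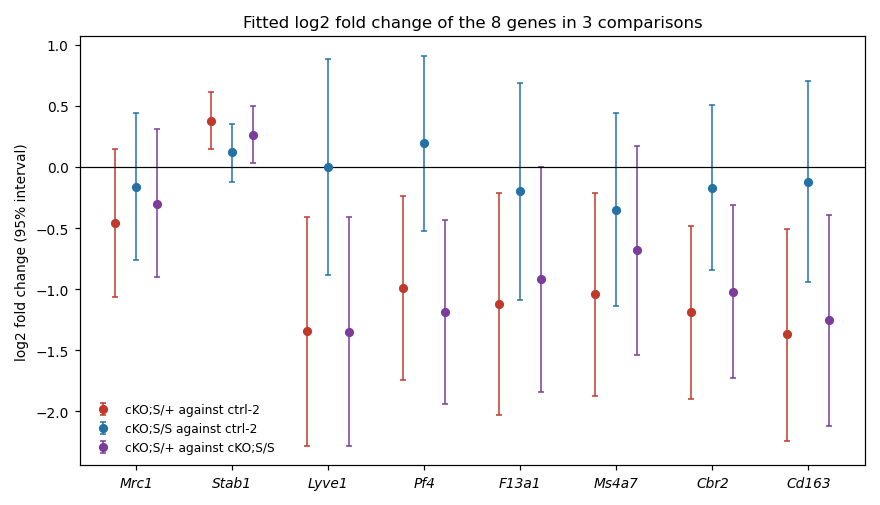
Fitted log2 fold change of the 8 genes (x axis) in the 3 comparisons (colours), with the 95% interval of edgeR's quasi-likelihood fit on 12 libraries. Against ctrl-2, the values of cKO;S/+ run from -1.37 for Cd163 to 0.38 for Stab1, and those of cKO;S/S from -0.35 to 0.20, all with intervals that span 0.

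The 2 comparisons with cKO;S/+ share its libraries, and the 2 with ctrl-2 share the controls, so the comparisons are not independent of each other. Variation between libraries followed the same lines within genotypes. Over the 12 libraries, Pearson r of log2 CPM among Lyve1, Cd163, F13a1, Pf4, Cbr2 and Ms4a7 ran from 0.76 to 0.96 (15 pairs), with Cd163 and F13a1 the closest pair. After each genotype's mean was removed it ran from 0.60 to 0.95. Mrc1 followed these 6 genes at 0.68 to 0.92, and Stab1 had an r of -0.43 to 0.03 with the other 7, which became 0.21 to 0.56 within genotypes. These values describe 12 libraries of the same kind of sort, which differ in total depth, and were given no test. Within ctrl-2, replicate 4 was the highest library for 7 of the 8 genes, and within cKO;S/S, replicate 15 was the highest for 8 of 8. Within cKO;S/+, replicate 9 was the lowest for 6 of 8.

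**Figure D3:**
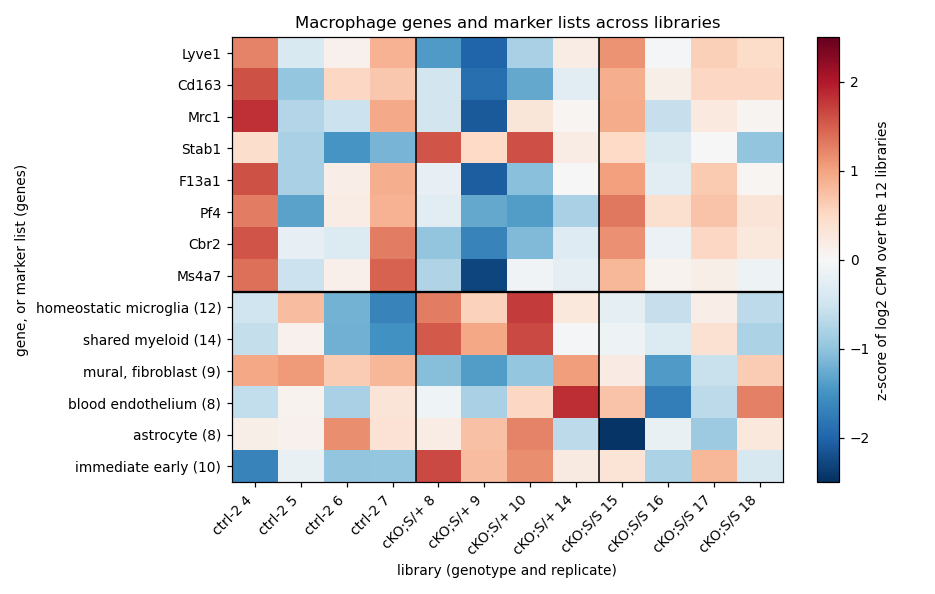
Level of the 8 genes (upper rows) and mean level of marker lists (lower rows, number of genes in brackets) in each of the 12 libraries (x axis, genotype and replicate), as z-scores of log2 CPM over the libraries, from blue (low) to red (high). Lyve1, Cd163, F13a1, Pf4, Cbr2 and Ms4a7 are all among their higher values in ctrl-2 replicates 4 and 7 and cKO;S/S replicate 15, and lowest in cKO;S/+ replicate 9 except for Pf4, which is lowest in cKO;S/+ replicate 10, while Stab1 is highest in cKO;S/+ replicates 8 and 10, as are the homeostatic microglia and shared myeloid lists.

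Markers of other cells moved with the same comparison. All 12 homeostatic microglia markers had higher fitted values in cKO;S/+ than in ctrl-2 (median log2 fold change 0.69). Of these, 5 were called higher and 0 lower, where 5.9% and 1.38% of all genes were. Their summed level ran from 5120 to 7530 CPM in cKO;S/+, from 3250 to 5670 in ctrl-2 and from 4010 to 4980 in cKO;S/S. Of the 14 markers shared by myeloid cells, 13 were called higher (median 1.11), among them Csf1r, which rose from 839 ± 260 to 1530 ± 363 CPM (SD, n = 4). Of 4 measured markers of monocytes and neutrophils, Lyz2 was called higher. The markers shared by myeloid cells thus moved in the direction opposite to 7 of the 8 border macrophage genes. Of 14 other measured border macrophage markers, 9 had a log2 fold change above 0 and 5 below it. Stab1 followed the microglia list over the 12 libraries (Pearson r 0.80) and the shared myeloid list (0.87), and Cd163 ran against them (-0.71 and -0.70). Within genotypes these became 0.56 and 0.68 for Stab1, and -0.42 and -0.38 for Cd163.

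**Figure D4:**
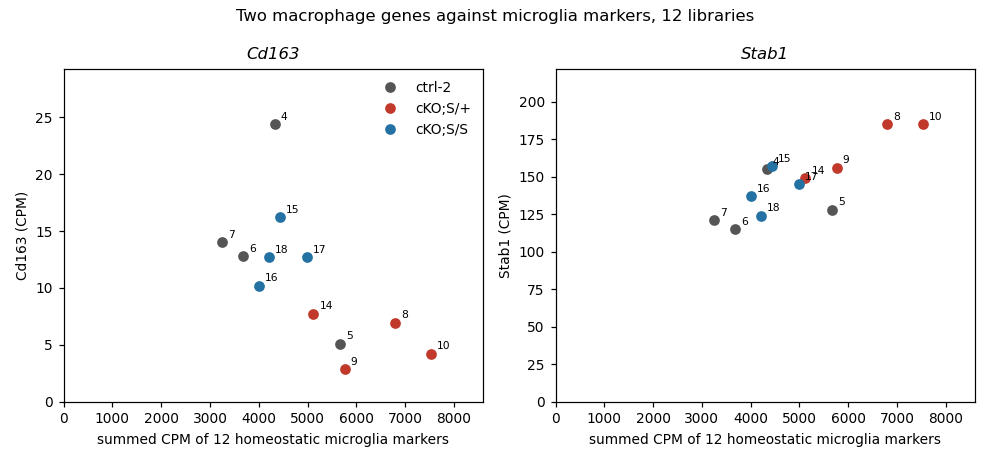
Level of Cd163 (left) and Stab1 (right) in CPM against the summed CPM of 12 homeostatic microglia markers, 1 point per library with its replicate number, coloured by genotype, both axes linear from 0. Sparc has the highest mean level of these 12 markers in each genotype. Cd163 is at 7.73 CPM or less in the cKO;S/+ libraries and in ctrl-2 replicate 5, whose microglia sum of 5670 CPM is the highest of ctrl-2, while Stab1 is at 185 CPM in the 2 libraries with the highest sums, cKO;S/+ replicates 8 and 10.

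Set against the microglia markers of the same library, Cd163 stood at 3.59 ± 2 CPM per 1000 CPM of the summed microglia list in the controls (SD, n = 4), 0.896 ± 0.471 in cKO;S/+ and 2.94 ± 0.518 when Sarm1 was also deleted. This ratio was lower in all 4 cKO;S/+ libraries than in all 4 cKO;S/S libraries for 8 of the 8 genes, Stab1 included, but so it was for 39% of all genes, and the microglia sums of these groups do not overlap (5120 to 7530 against 4010 to 4980 CPM). Against ctrl-2 the ratio overlapped for each of the 8 genes, where 15.1% of all genes were lower without overlap. In ctrl-2 replicate 5 the Cd163 ratio was 0.901, inside the range of cKO;S/+ (0.497 to 1.51). The largest part of the microglia sum came from a single gene, Sparc, with a mean of 1630 CPM where the mean ctrl-2 sum was 4230 CPM. For the cKO;S/+ group its mean was 2110 of 6300 CPM, and for the cKO;S/S group 1610 of 4410 CPM. Which cells carried the Sparc reads was not tested, so the sum may not stand for microglia alone. With the mean of the microglia markers as a covariate, the log2 fold change of Cd163 in cKO;S/+ against ctrl-2 was -0.82 (SE 0.589, against 0.398 in the main fit, adjusted p = 0.764). That of Cbr2 was -0.89 (adjusted p = 0.731) and that of Stab1 0.17 (adjusted p = 0.786), and in that fit 0 of all genes were called. The microglia sums of cKO;S/+ and ctrl-2 overlap only through ctrl-2 replicate 5, so this fit can hardly separate them from genotype.

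Mural cell and fibroblast markers, which sit beside these macrophages along vessels and in the meninges, were lower in cKO;S/+ in fitted value for 9 of 9 genes (median log2 fold change -0.49, 0 called, 5 at an unadjusted p under 0.05). Their summed level was 930 to 1030 CPM in ctrl-2, and 598, 554, 629 and 979 CPM in cKO;S/+ replicates 8, 9, 10 and 14. Replicate 14, whose sum lay within the ctrl-2 range, was also the cKO;S/+ library with the highest Lyve1, F13a1, Cbr2 and Cd163. Mrc1, Ms4a7 and Stab1 were highest in replicate 10 of that group and Pf4 in replicate 8, and Stab1 was lowest in replicate 14. In cKO;S/S the sums were 807, 580, 708 and 985 CPM, where the macrophage genes were near ctrl-2. Against ctrl-2, 8 of these 9 mural and fibroblast markers were lower in cKO;S/S in fitted value (median log2 fold change -0.38, 0 called). At an unadjusted p under 0.05, 5 of them were lower, where 4.87% of all genes were. With this list as a covariate, the log2 fold changes against ctrl-2 became -0.67 for Lyve1 (adjusted p = 0.531), -0.78 for Cbr2 (adjusted p = 0.433), -0.90 for Pf4 (adjusted p = 0.445) and -0.99 for Cd163 (adjusted p = 0.425), and 0 of all genes were called. Blood endothelial markers in cKO;S/+ against ctrl-2 had a median of 0.21 and 0 of 8 called, where 5.9% of all genes were higher and 1.38% lower.

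The groups also differed in their share of female animals and in immediate early genes, known to be induced when tissue is dissociated. Xist, the RNA of the inactive X chromosome, was present in 1 of 4 ctrl-2 libraries (replicate 7), in 3 of 4 of cKO;S/+ (replicates 8, 9 and 10) and in 2 of 4 of cKO;S/S (replicates 16 and 17). Among libraries with Xist, Cd163 had 14 CPM in the 1 ctrl-2 library and 2.86 to 6.94 CPM in the 3 of cKO;S/+. Among those without it, Cd163 was at 5.11 to 24.4 CPM in 3 ctrl-2 libraries and at 7.73 CPM in cKO;S/+ replicate 14. In both strata 7 of the 8 genes were lower in cKO;S/+, with mean log2 differences for Cd163 of -1.66 and -0.59 and for Lyve1 of -2.16 and -0.14, and no stratum had 2 libraries in each group. With Xist as a covariate Cbr2 had a log2 fold change of -1.13 (adjusted p = 0.115), and of all genes 2 were called. Of 10 immediate early genes, 9 were called higher in cKO;S/+ than in ctrl-2 (median 1.17), where 5.9% of all genes were. Their sums were 3350 to 6010 CPM in cKO;S/+ against 1560 to 2900 CPM in ctrl-2. With these as a covariate Cd163 was at -0.63 (SE 0.704, against 0.398 in the main fit, adjusted p = 0.999), and again 0 of all genes were called. The immediate early sums of cKO;S/+ and ctrl-2 do not overlap, so this fit cannot separate them from genotype. The part of microglia, mural cells, sex and immediate early genes in the difference was not tested, and these fits do not settle it.

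Other markers of border macrophages did not all move like the 8 genes. Of 18 further markers, 14 were measured, 9 had a log2 fold change above 0 and 5 below it in cKO;S/+ against ctrl-2, and none was called (median 0.12). Maf, a transcription factor of macrophages, stood at 73.6 ± 16.5 CPM in controls and at 97.9 ± 20.3 in cKO;S/+ (SD, n = 4, log2 fold change 0.41, adjusted p = 0.149). Dab2, an endocytic adaptor, had -0.18 (adjusted p = 0.286), and Hpgd, which breaks down prostaglandins, 0.71 (adjusted p = 0.0698). Maf and Dab2 are also made by other cells of the cortex. Of the lectin and lipid receptors, Clec10a was at -1.25 (adjusted p = 0.0994). Mgl2 at -1.37 (adjusted p = 0.0562) and Cd36 at -0.92 (adjusted p = 0.0915) were chosen after their values were seen, while Lilra5, chosen likewise, was at 1.26 (adjusted p = 0.125). In cKO;S/+ against cKO;S/S the log2 fold change of Clec10a was -1.35 (adjusted p = 0.159). Of 9 measured scavenger receptor genes, Colec12 was called lower (log2 fold change -0.55, SE 0.152, adjusted p = 0.0457) and Cd68 higher (1.26, SE 0.299, adjusted p = 0.0276), where 1.38% and 5.9% of all genes were.

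Outside the 8 genes themselves, those most like the mean of the 7 members with at least 10 counts in every library were Gnb4, a G protein subunit (Pearson r 0.932 over 12 libraries), Clec10a, a lectin receptor of macrophages and dendritic cells (0.932), Cd4, a coreceptor of T cells (0.915), Fam83d, a protein of the mitotic spindle (0.908), and Tmeff1, a transmembrane protein (0.902). With the 8 again left out, the genes most like Mrc1 alone were Sepw1, a selenoprotein (0.898), Cd4 (0.887) and Lsm11, a part of the U7 ribonucleoprotein (0.862). Clec10a stood at 1.84 ± 1.25 CPM in controls, 0.765 ± 0.295 CPM in the cKO;S/+ group and 1.97 ± 0.329 CPM in the cKO;S/S group (SD, n = 4). These genes were picked from the whole table for their r and carry no test.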

How the data were processed

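The deposited table holds raw read counts per gene and library, which the authors made with STAR 2.7.10a and featureCounts of Subread 2.0.3 on mm10 (submitters' processing notes, which also name FastQC 0.11.5 and edgeR 4.2.1). Neither source states the annotation or the strand setting. Genes with few counts had been left out by the authors. The authors' log2 CPM, log2 fold changes, signed fold changes, p-values and false discovery rates are deposited beside them and were not used, and the deposited exon length served for levels per kilobase.

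Counts were tested with edgeR 4.0.16 in R 4.3.3 (TMM, filterByExpr with a minimum count of 10 and a minimum total of 15, which removed 0 genes, glmQLFit and glmQLFTest). All 12 libraries entered 1 fit (9 residual and 3.78 prior degrees of freedom). Tests were two-sided with Benjamini-Hochberg adjustment over 15089 genes and a threshold of 0.05. CPM use the TMM-scaled totals, and log2 CPM a prior count of 2. Alternatives used DESeq2 1.42.0, limma-voom (limma 3.58.1), other scalings and filters, covariates, 2 groups alone and each library left out in turn. The test was checked on simulated counts.

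The 8 genes and the marker lists were chosen with earlier results of these data known. Most other genes named are the up to 3 most abundant and up to 4 called genes of a list, or the 5 or 3 most similar genes over the libraries. Hpgd and Tmem119 were named outside this rule, as were Mgl2, Cd36 and Lilra5. The methods describe isolation per mouse brain. Libraries of 1 group differed by more than sampling noise (chi-square per degree of freedom of 12 to 43.4). Promoters and gene overlaps come from RefSeq on GRCm38.p6, and figures were drawn with matplotlib 3.10.9.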

Additional observations from a re-analysis of the deposited data

How the results depend on the processing

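In cKO;S/+ against ctrl-2 and against cKO;S/S, each of the 8 genes kept its sign under all 27 alternatives. In cKO;S/+ against ctrl-2, 1 member was lower and 0 higher. The count lower was 2 with upper-quartile scaling, 3 by the likelihood ratio test, 4 by DESeq2, and 0 by limma-voom, with the 2 groups fitted alone, or with a microglia, Xist, shared myeloid, mural and fibroblast or immediate early covariate. The last 3 covariates were chosen after seeing the data. Of all genes, 208 were lower in the main analysis, 371 with upper-quartile scaling, 380 by the likelihood ratio test, 559 by DESeq2, 240 by limma-voom and 106 with the 2 groups alone, against 2 with Xist and 0 with each of the other 4 covariates. The count higher was 1 by the likelihood ratio test and by DESeq2. With 1 library left out, the counts were 0 to 5 lower and 0 to 1 higher. In cKO;S/+ against cKO;S/S the count lower was 0 in the main analysis, 1 by the likelihood ratio test, 3 by DESeq2 and 0 to 3 with 1 library left out. The cause was not tested.

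In cKO;S/S against ctrl-2, where no member was called under any alternative, the sign changed for 6 genes. Lyve1 (0.00) was at -0.01 with RLE scaling and by DESeq2, at -0.02 with upper-quartile scaling and at 0.00 by the likelihood ratio test and with 2 groups. With the mural covariate Mrc1 was at 0.08, F13a1 at 0.18, Cbr2 at 0.16 and Cd163 at 0.20. With the immediate early covariate F13a1 was at 0.01, Cbr2 at 0.05 and Cd163 at 0.32. Cd163 was at 0.08 by limma-voom, 0.03 with the microglia and 0.07 with the shared myeloid covariate. With 1 library left out, ranges were -0.32 to 0.11 for Mrc1, -0.22 to 0.29 for Lyve1, -0.07 to 0.47 for Pf4, -0.46 to 0.18 for F13a1, -0.36 to 0.09 for Cbr2 and -0.40 to 0.29 for Cd163. No paired analysis was made. The study describes its controls as littermates, but the replicate numbers do not tell which libraries came from the same litter. Ms4a7, with as few as 5 counts in a library, is the member most limited by depth.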
